A study of Rattus norvegicus with 9 samples.

Results

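The genes described here are 8 subunits of the mitochondrial machinery that makes ATP, measured for methylated DNA in N27 cells, a rat dopaminergic neural cell line. They are the complex I subunits Ndufs3, Ndufv2, Ndufa6, Ndufb3, Ndufb5 and Ndufb9 and the ATP synthase subunits Atp5f1b and Atp5pb. They were found by the RefSeq accession of the probe, and each has exactly 1 probe on the array, printed at 10 spots. They are 8 of the 1390 gene probes printed at 10 spots, out of 30367 gene probes in all. The members were chosen by a measured value, the signal to noise ratio of a single spot on each array. All 8 are in the authors' deposited list of Mn values, and some in those of MPP+ and control. On each listed array 1 of the 10 spots of a probe was thus used to choose it, often another spot from array to array. The levels below are therefore a description. The differences against control are also given with the listed spot left out. A spot could be left out only in groups whose list holds the gene. Where a gene is listed on 1 side of a comparison alone, the setting takes from that side alone and is no even check. Where it is listed on both, the spots left out can still differ in height between the sides. The groups were cells given manganese (Mn), cells given 1-methyl-4-phenylpyridinium (MPP+) and untreated control cells, all of the same line. Both toxicants were used below their lethal dose, and no source used here gives the dose or the duration. Each group had 3 arrays, which the labels call independent biological replicates.

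Complex I takes electrons from NADH at the entry of the respiratory chain and pumps protons across the inner mitochondrial membrane. ATP synthase lets the protons flow back and uses that flow to make ATP. MPP+ is taken up by dopaminergic cells and blocks complex I, and manganese builds up in the basal ganglia and disturbs mitochondrial function. In mammals 5-methylcytosine lies mostly at CG dinucleotides, and the CG-rich promoters of widely expressed genes are usually poor in it. On this array the genomic DNA was sheared, made single-stranded and bound to the spots, and an antibody to 5-methylcytosine, made visible by a Cy3-coupled second antibody, gave the signal. A dim spot cannot be told apart from one that bound little DNA.

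The promoters of the members are shown because the CG dinucleotides in them are the places where methylation could be stained. RefSeq windows of the GRCr8 assembly, which run over the start of the gene and lie mostly before it, were found for 7 of the 8 members, all but Ndufb9. RefSeq places Ndufb5 and Atp5pb on chromosome 2, Ndufs3 on chromosome 3, Ndufa6, Ndufb9 and Atp5f1b on chromosome 7, and Ndufv2 and Ndufb3 on chromosome 9. The windows held between 15 CG dinucleotides in Atp5f1b and 39 in Ndufv2, with a CG count of 20 or more in all but Atp5f1b and Ndufs3. Windows of all ten-spot probes had a median of 20, the windows of all 27456 rat genes a median of 7, and 94.8% of all windows held at least 1. At least 10 CG were held by 78.3% of the ten-spot windows and by 44.1% of all. CG reads the same on both strands, so 1 count serves for both. The windows with the most and the fewest are printed 5′ to 3′ on the strand of the gene, with each CG in capitals.
Ndufv2, chr9:113157471-113157770, minus strand: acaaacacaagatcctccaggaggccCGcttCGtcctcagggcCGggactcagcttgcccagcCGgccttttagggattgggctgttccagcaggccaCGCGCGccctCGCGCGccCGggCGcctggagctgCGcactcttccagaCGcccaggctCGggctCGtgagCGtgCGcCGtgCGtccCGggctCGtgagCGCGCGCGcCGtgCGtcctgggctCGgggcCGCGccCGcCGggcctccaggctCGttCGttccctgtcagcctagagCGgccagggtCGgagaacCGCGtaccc
Atp5f1b, chr7:1099808-1100107, plus strand: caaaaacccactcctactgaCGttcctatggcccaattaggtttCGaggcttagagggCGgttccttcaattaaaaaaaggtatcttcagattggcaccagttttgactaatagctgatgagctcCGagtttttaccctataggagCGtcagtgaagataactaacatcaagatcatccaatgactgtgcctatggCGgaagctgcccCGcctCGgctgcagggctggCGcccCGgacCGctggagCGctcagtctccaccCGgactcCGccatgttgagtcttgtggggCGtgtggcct
The Ndufv2 window was 72.7% G and C, and 96.6% of all rat windows held no more CG than it did. The Atp5f1b window was 53.3% G and C, and the matching share was 67.0%. The other 5 windows held 19 CG (Ndufs3), 20 (Ndufb3 and Ndufb5), 21 (Atp5pb) and 36 (Ndufa6). Whether the DNA bound to a probe reached into these windows is not known, because the probes are those of an expression array. Over the 960 ten-spot probes with a matched window, the mean signal and the CG count had a Pearson correlation of 0.011 and a Spearman correlation of 0.0059, given as a description across probes.

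The scanner outputs deposited for control replicate 3 and Mn replicate 3 were equal at 100% of the spots. In the authors' deposited value table, the control replicate 3 column matched that output at 99.9% of its ten-spot values and the Mn replicate 3 column at 4.31%. The output was therefore counted as control replicate 3, which left 2 Mn, 3 MPP+ and 3 control arrays. Differences against control are given below also without this output and with it counted as Mn. By their spot positions, the arrays lay at place 3 of the slide for Mn, at place 1 (replicates 1 and 2) or 2 (replicate 3) for MPP+ and at place 4 for control, so group and place cannot be told apart. Replicate 3 of MPP+ and control came from outputs with 2 channels and the others from outputs with 1, and only channel 1 was used. On each array the value of a probe was the mean over its 10 spots of log2(spot median / local background median), in which 0 means no brighter than the surroundings of the spot. Its standard error (SE) over the 10 spots averaged between 0.142 for Ndufb3 and 0.209 for Atp5pb.

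Hardly any spot of the complex I and ATP synthase probes stood out from its background. A spot was called above background where its median lay more than 2 SDs of the local background over that background's median. This held for 28 of the 640 member spots on the 8 arrays, or 4.38% (95% Wilson interval 3.04 to 6.25, counting error only). Over all ten-spot probes it held for 3.23% (3.13 to 3.34), and over the blank spots, the dark corners and negative controls of the array, for 2.91% (2.51 to 3.36). The interval of the members thus overlapped that of the blank spots. The member counts, here and by group, include the listed spots used to choose the members, some of which were above background. They are a description, and the share without those spots was not computed. By group it held for 9 of 160 member spots in Mn (5.63%), 8 of 240 in MPP+ (3.33%) and 11 of 240 in control (4.58%). For all ten-spot probes the shares were 3.99% in Mn, 2.70% in MPP+ and 3.26% in control. Ndufb3, an accessory subunit of the membrane arm of complex I, had 0 of its 80 spots above background, which allows a share of up to 3.75%. The other 7 members had 1 to 5 of 80, with 1 for Atp5f1b. Of all ten-spot probes, 95 (6.83%) had none.

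The mean over the 8 arrays lay between 0.059 for Ndufb3 and 0.28 for Ndufv2. From the 5th to the 95th percentile, all ten-spot probes ran from 0.072 to 0.28, with a median of 0.17. Among all ten-spot probes, Ndufb3 lay at percentile 3.31, below that range, and Ndufv2 at 94.9. The other 6 members lay between 28.3 (Atp5f1b) and 83.4 (Atp5pb). The position places a value in the spread and is no order of methylation between genes. As given further below, the 10 spots of a probe were hardly more alike than spots of different probes. Across arrays the members varied with SDs between 0.107 (Ndufb3) and 0.239 (Atp5f1b), with a median of 0.19, against a median of 0.17 over all ten-spot probes. For comparison, the mean SE from the 10 spots was 0.162 over all ten-spot probes.

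**Figure D1:**
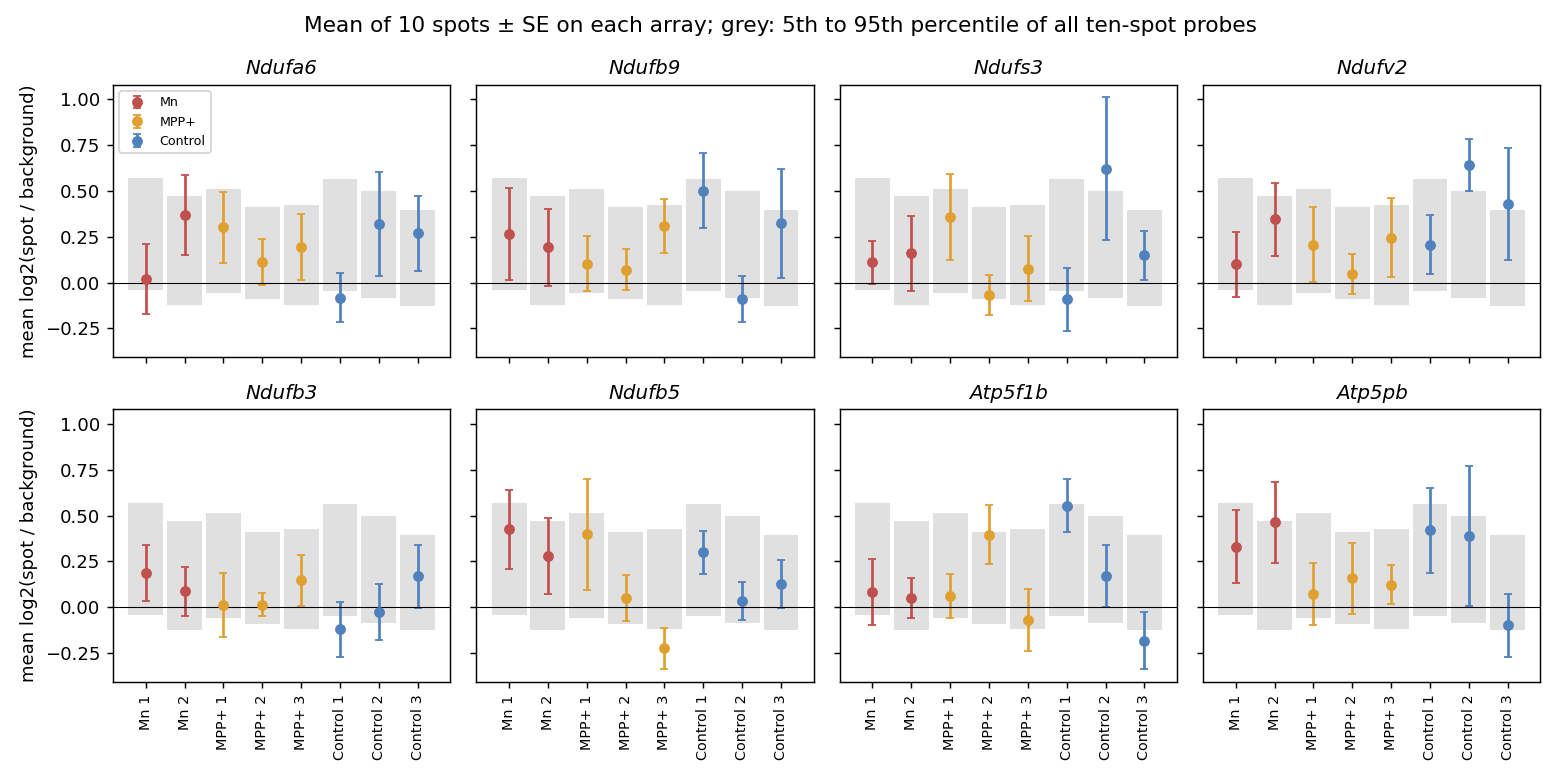
Mean of log2(spot median / background median) over the 10 spots of each complex I and ATP synthase probe on each array (points, with SE over the 10 spots), by group, beside the 5th to 95th percentile of all 1390 ten-spot probes on that array (grey bars). Most points lie inside the grey bars, and the groups overlap in every panel except that Mn lies above MPP+ for Atp5pb. Mn lay above MPP+ on every array for 15.3% of all ten-spot probes.

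Ndufv2 and Ndufs3 are core subunits of the arm of complex I that reaches into the matrix. Ndufv2 carries an iron-sulfur cluster beside the site where NADH is oxidised, and Ndufs3 helps to join that site to the membrane arm. Ndufv2 had mean log2 values of 0.10 and 0.34 in Mn, 0.21, 0.048 and 0.25 in MPP+, and 0.21, 0.64 and 0.43 in control. The highest values were on control replicates 2 and 3, and the groups overlapped because control replicate 1 lay among the treated arrays. Among the 24 differences tested, that of Ndufv2 in MPP+ against control was the lowest, -0.26 ± 0.143 (SE, 95% interval -0.55 to 0.034). It did not pass the test (limma adjusted p = 0.995 over the 1390 probes) and stood at percentile 4.53 of all ten-spot differences. In Mn against control it was -0.20 ± 0.160 (adjusted p = 0.967, limma). Both comparisons share the control arrays. For Ndufv2, the Mn and MPP+ differences against control were -0.27 and -0.21 with the listed spot left out, and -0.20 and -0.26 without control replicate 3. With the shared output counted as Mn, the Mn difference of Ndufv2 was -0.13. One array moved the Mn difference further: it was -0.081 without Mn replicate 1, -0.32 without Mn replicate 2, -0.31 without control replicate 1 and -0.095 without control replicate 2. The MPP+ difference was -0.15 without control replicate 2, and -0.37 without control replicate 1.

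Ndufs3 had 0.11 and 0.16 in Mn, 0.36, -0.065 and 0.076 in MPP+, and -0.091, 0.62 and 0.15 in control. The single value of 0.62, on control replicate 2, exceeded every treated array, and its SE was 0.389 because 1 of its 10 spots stood at 3.33 and another at 1.94. Its differences were -0.09 ± 0.179 for Mn and -0.10 ± 0.160 for MPP+ against control, and the Mn value became 0.11 and the MPP+ value 0.094 without control replicate 2. For Ndufs3, the Mn and MPP+ differences against control were -0.15 and -0.080 with the listed spot left out, and -0.13 and -0.14 without control replicate 3. The Mn difference of Ndufs3 with the shared output counted as Mn was -0.13.

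Ndufa6, Ndufb3, Ndufb5 and Ndufb9 are accessory subunits, which surround the core of complex I and are needed for its assembly or stability. Ndufa6 sits on the matrix arm, and the Ndufb subunits belong to the membrane arm. Ndufa6 had mean log2 values of 0.020 and 0.37 in Mn, 0.30, 0.11 and 0.19 in MPP+, and -0.082, 0.32 and 0.27 in control. The Mn arrays were the second lowest and the highest of the 8. Its differences against control were 0.025 ± 0.163 in Mn and 0.032 ± 0.146 in MPP+. The Mn difference turned on which Mn array was kept, 0.20 without Mn replicate 1 and -0.15 without Mn replicate 2. For Ndufa6, the Mn and MPP+ differences against control were 0.18 and 0.093 with the listed spot left out, and 0.075 and 0.082 without control replicate 3. The Mn difference of Ndufa6 with the shared output counted as Mn was 0.099.

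Ndufb5 had 0.42 and 0.28 in Mn, 0.40, 0.050 and -0.23 in MPP+, and 0.30, 0.034 and 0.13 in control. On MPP+ replicate 3 it was at percentile 0.647 of all ten-spot probes, with 7 of its 10 spots below background. The difference of Mn against control was 0.20 ± 0.169 and that of Mn against MPP+ was 0.28 ± 0.169 (95% interval -0.068 to 0.62), and neither passed the test (limma adjusted p = 0.967 and 0.893). With the listed spot left out they were 0.11 and 0.19. This took from the Mn arrays alone spots at 1.22 and 1.07, above the mean of the other 9 (0.34 and 0.19). Both differences therefore had to fall. With the median of the 10 spots in place of their mean, the Mn difference against control of Ndufb5 was 0.0085, and it was 0.13 without Mn replicate 1. MPP+ against control was -0.080 ± 0.151, and -0.080 with the listed spot left out, as no spot of Ndufb5 is listed for MPP+ or control. Without control replicate 3, Mn against control was 0.19 and MPP+ against control -0.092, and with that output counted as Mn the Mn difference was 0.11. The difference between Mn and MPP+ was 0.13 without MPP+ replicate 3 and 0.44 without MPP+ replicate 1.

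Ndufb9 had 0.27 and 0.19 in Mn, 0.10, 0.071 and 0.31 in MPP+, and 0.50, -0.091 and 0.32 in control. Its highest and lowest arrays were both controls, 0.593 apart. Ndufb3 had 0.19 and 0.086 in Mn, 0.014, 0.014 and 0.15 in MPP+, and -0.12, -0.025 and 0.17 in control. Of its 3 control means, 2 were below background. The differences against control were -0.016 ± 0.167 (Mn) and -0.083 ± 0.149 (MPP+) for Ndufb9, and 0.13 ± 0.152 (Mn) and 0.050 ± 0.136 (MPP+) for Ndufb3. For Ndufb9, the Mn and MPP+ differences against control were -0.097 and -0.059 with the listed spot left out, and 0.023 and -0.043 without control replicate 3. With the shared output counted as Mn, the Mn difference of Ndufb9 was 0.055. For Ndufb3, the Mn and MPP+ differences against control were 0.063 and 0.050 with the listed spot left out, and 0.21 and 0.13 without control replicate 3. Ndufb3 is listed for Mn alone, so leaving out the listed spot lowered only its Mn means. The Mn difference of Ndufb3 with the shared output counted as Mn was 0.22. Without control replicate 1, Ndufb3 gave 0.065 in Mn and -0.014 in MPP+.

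Atp5f1b encodes the beta subunit, the catalytic part of the F1 head of ATP synthase, and Atp5pb encodes subunit b of the stalk that holds the head still. Atp5f1b had mean log2 values of 0.084 and 0.050 in Mn, 0.062, 0.40 and -0.068 in MPP+, and 0.55, 0.17 and -0.18 in control. The 3 control arrays spanned 0.735, the widest span of any member, and held every treated array between them. Its differences against control were -0.11 ± 0.181 in Mn and -0.051 ± 0.162 in MPP+. Without control replicate 3 they were -0.30 and -0.23, and without control replicate 1 they were 0.072 and 0.14. With the listed spot left out, Atp5f1b gave -0.16 in Mn and -0.12 in MPP+ against control. Atp5f1b is not listed for control, so that setting lowered its Mn and MPP+ means and left its control means as they were. With the shared output counted as Mn, its Mn difference was -0.38.

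Atp5pb had 0.33 and 0.46 in Mn, 0.071, 0.16 and 0.12 in MPP+, and 0.42, 0.39 and -0.10 in control. Both Mn arrays were above all 3 MPP+ arrays, which was seen for 15.3% of all ten-spot probes. Of the members, groups were apart for Atp5pb in this comparison alone, and its control arrays spread over both. The difference of Mn against MPP+ was 0.28 ± 0.164 (95% interval -0.056 to 0.61), which did not pass the test (limma adjusted p = 0.893). It was 0.31 with the listed spot left out and 0.11 with the shared output counted as Mn replicate 3. Mn against control was 0.16 ± 0.164, and -0.0082 without control replicate 3. With that output counted as Mn it was -0.17. MPP+ against control was -0.12 ± 0.146, and -0.29 without control replicate 3. With the listed spot left out, Atp5pb gave 0.27 in Mn and -0.037 in MPP+ against control.

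**Figure D2:**
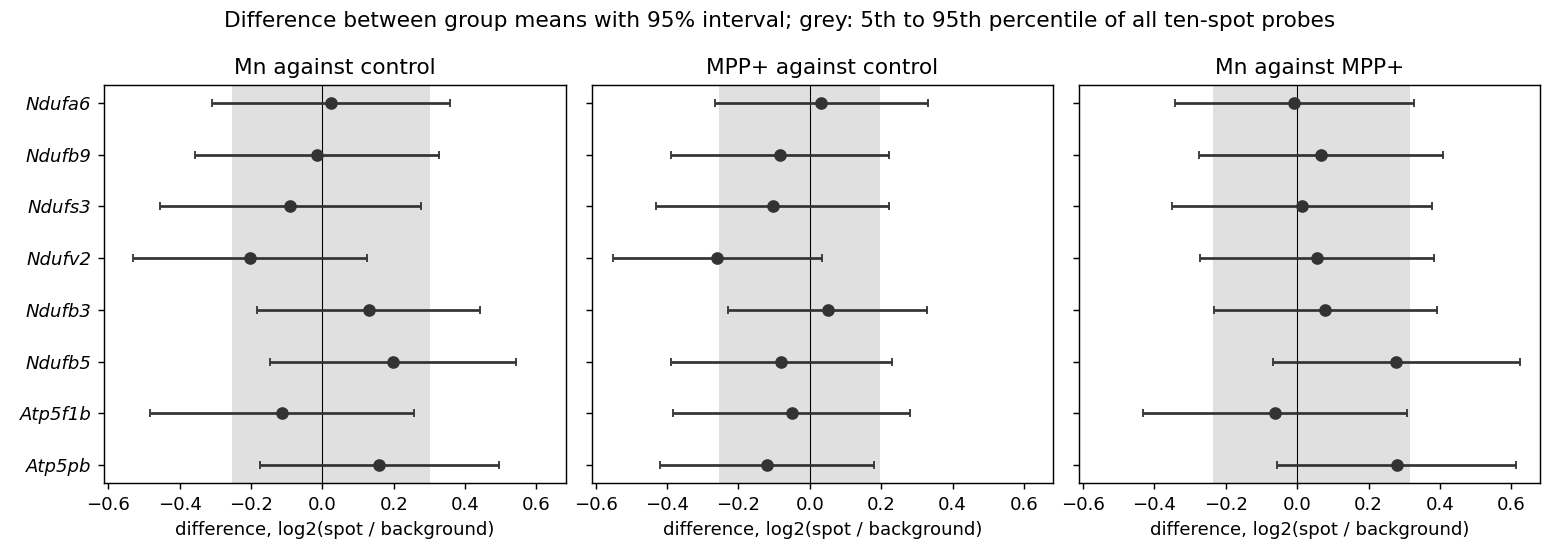
Difference between group means of each probe on the log2 scale (points) with its 95% interval from the limma fit (bars), in 1 panel per comparison, with the 5th to 95th percentile of the differences of all 1390 ten-spot probes in grey. All 24 intervals include 0, and Ndufv2 in MPP+ against control is the only point outside the grey band.

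Over the 8 genes, no difference between groups passed the test in any comparison. In Mn against control 0 of 8 members passed the limma test at an adjusted p of 0.05, and of all ten-spot probes 0% did. Unadjusted p-values were under 0.05 for 0 of the 8 and for 79 of the 1390 (5.68%), and the smallest adjusted p was 0.335. Members were higher in Mn for 4 genes and lower for 4, with a median difference of 0.0045, beside 0.020 over all ten-spot probes. Of all 1390 ten-spot probes, 752 were higher in Mn than in control. No member had Mn arrays all above or all below the control arrays, which was seen for 12.2% (Mn higher) and 7.48% (Mn lower) of ten-spot probes. From the 5th to the 95th percentile, differences of all ten-spot probes ran from -0.25 to 0.30, and the members' from -0.20 (Ndufv2) to 0.20 (Ndufb5) lay inside.

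In MPP+ against control 0 of 8 members were called, with 0% of all ten-spot probes. Unadjusted p-values were under 0.05 for 0 of the 8 and for 45 of the 1390 (3.24%), and the smallest adjusted p was 0.995. Of the members 2 were higher and 6 lower in MPP+, with a median of -0.081, beside -0.026 over all ten-spot probes. Of all 1390 ten-spot probes, 590 were higher in MPP+ than in control. No member had groups apart, while 3.38% (MPP+ higher) and 5.4% (MPP+ lower) of ten-spot probes did. In Mn against MPP+ again 0 of 8 members and 0% of ten-spot probes were called, and the adjusted p went no lower than 0.169. At an unadjusted p under 0.05 there were 0 members and 68 probes (4.89%). Members were higher in Mn for 6 and lower for 2, with a median of 0.062, beside 0.042 over all ten-spot probes. The counts of direction in Mn, here and against control, include the listed spots by which the members were chosen, and are a description. With the listed spot left out, Mn against MPP+ turned negative for Ndufb9 (-0.037), Ndufs3 (-0.070) and Ndufv2 (-0.061). It turned positive for Ndufa6 (0.086), and the other members kept their direction. Ndufb3 and Ndufb5 are listed for Mn alone, so for them that setting took from Mn alone. Atp5pb was the 1 member with Mn above MPP+ on every array, which held for 15.3% of ten-spot probes. The opposite held for 6.26% of ten-spot probes and for no member. The 3 comparisons share arrays, so their values are not independent.

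The 10 spots of a probe were hardly more alike than spots of different probes, and a probe's mean on one array told little of its mean on another. The share of the variance of single spots that lay between probes was estimated at -0.33% to 0.68% on the 8 arrays. On Mn replicate 1 the probe means had an SD of 0.193, while the SD of its single spots divided by the square root of 10 was 0.191. On MPP+ replicate 2 these were 0.156 and 0.158. Between arrays, the Pearson correlation of the 1390 probe means ran from -0.062 to 0.054 over the 28 pairs of arrays, with a median of 0.0016, and 13 pairs were below 0. For the 7 pairs within a group it ran from -0.062 to 0.046. These correlations are across probes, which are not independent replicates. Ndufs3 had 0.62 on control replicate 2 and -0.091 on control replicate 1, while Ndufb9 had -0.091 and 0.50 on the same arrays.

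**Figure D3:**
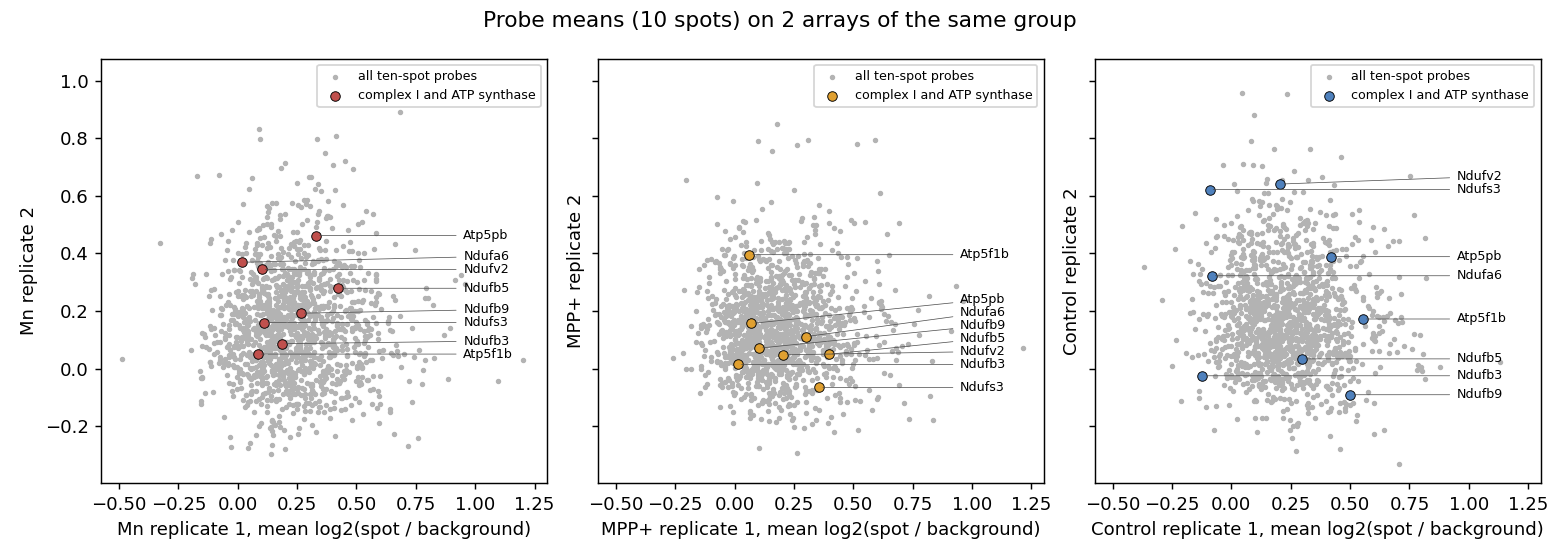
Mean log2(spot median / background median) of every ten-spot probe (grey) and of the 8 complex I and ATP synthase probes (coloured, named) on replicate 2 against replicate 1 of Mn, MPP+ and control. The clouds show no slope, with Pearson correlations across probes of 0.0030 in Mn, -0.011 in MPP+ and -0.062 in control.

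The authors' deposited table lists the members from single spots. Per probe and array it holds the signal to noise ratio of 1 spot, which is the median of the spot over the background SD around it. It lists 8 members for Mn, which is how they were chosen, 6 for MPP+ and 5 for control. Of all ten-spot probes it lists 789 for Mn (56.8%), 786 for MPP+ (56.5%) and 672 for control (48.3%). On the 8 arrays used, all 49 of its values for the members could be matched to a spot within 0.006. For Ndufa6, 2 spots matched on Mn replicate 1 and 2 on MPP+ replicate 2, and the first was taken. Its values with the listed spot left out depend on that choice. The listed spot was the one with the highest ratio of the 10 in 16 of the 49 (32.7%) and among the highest 3 in 36 (73.5%). Over all ten-spot probes it was the highest in 2140 of 5948 (36.0%) and among the highest 3 in 70.8%. The listed spots of the members averaged 0.89 on the log2 scale, and the other 9 spots of the same probes 0.13. Among all ten-spot probes these averages were 0.86 and 0.13. On 2 arrays of a group the same one of the 10 spots was listed for 9.64% to 12.8% of the probes.

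Atp5pb and Ndufa6 on control replicate 2 serve as examples, picked after their values were seen. For Atp5pb the authors' deposited table gives a ratio of 18.83, from a spot at 3.72 on the log2 scale, and the other 9 spots averaged 0.019. For Ndufa6 it gives 12.46, from a spot at 2.82, and the other 9 averaged 0.045. Both genes had 1 of 10 spots above background there. For Ndufv2 the table's ratios were 2.40 and 2.11 in Mn replicates 1 and 2, 1.25, 1.61 and 1.40 in MPP+, and 1.89, 5.52 and 3.46 in control. On control replicate 2, its highest array, Ndufv2 differed from the other examples: the listed spot stood at 1.10 and the other 9 averaged 0.59, with single spots between -0.046 and 1.23. With the listed spot left out, the differences of all members lay between -0.27 and 0.31, and the smallest adjusted p was 0.975 (limma). That setting is uneven for Ndufb3, Ndufb5 and Atp5f1b, which are not listed for every group. For genes listed in every group, the spots left out could also differ in height between groups. For Atp5pb they stood at 0.57, 3.72 and 1.23 in control and at 1.08 and 0.93 in Mn.

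**Figure D4:**
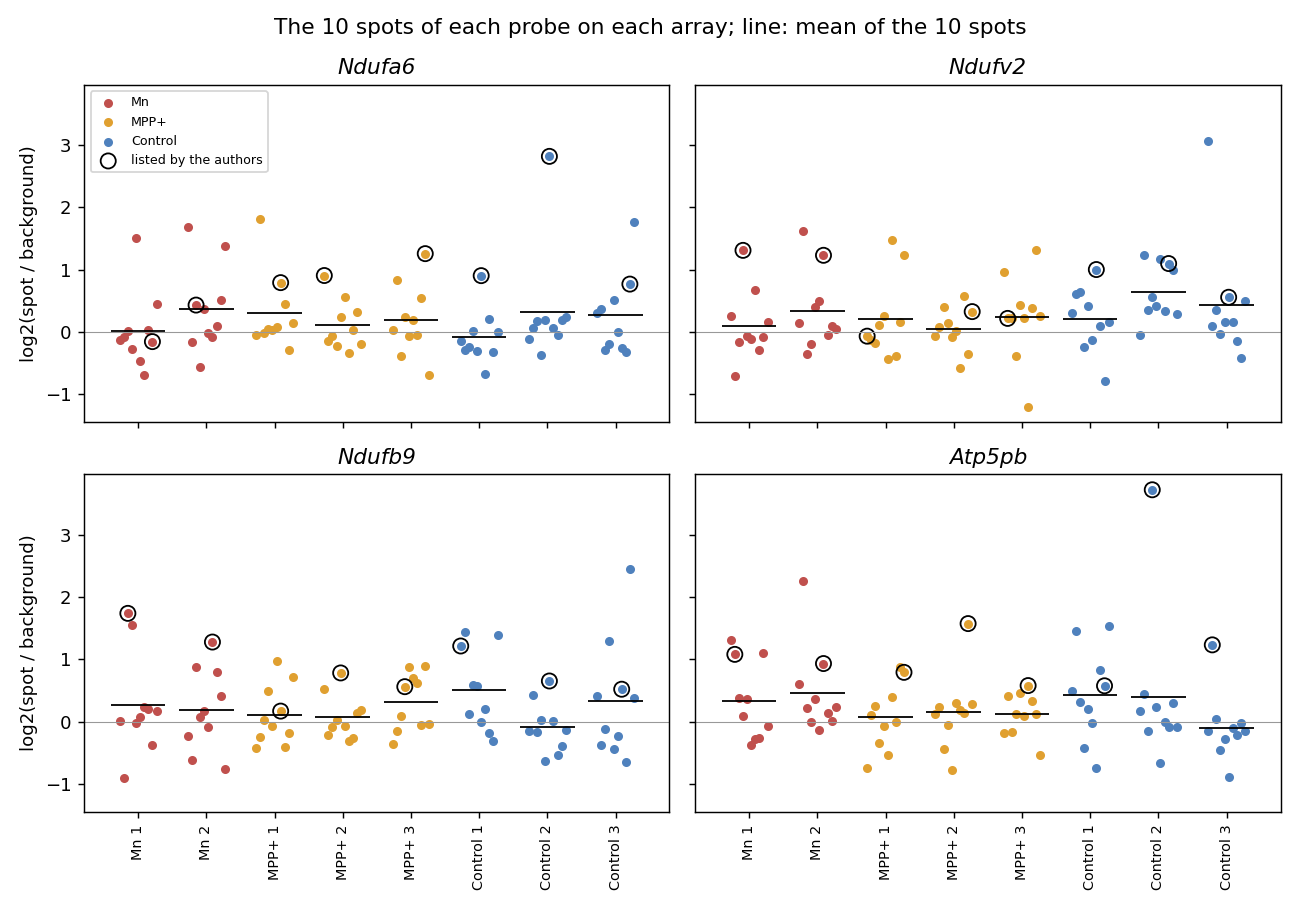
log2(spot median / background median) of the 10 spots of Ndufa6, Ndufv2, Ndufb9 and Atp5pb on each array (points), with the mean of the 10 (line) and the spot whose signal to noise ratio the authors' deposited table lists (open circle). Atp5pb and Ndufa6 on control replicate 2 have 1 listed spot far above the other 9, while the spots of Ndufv2 on that array lie between -0.046 and 1.23.

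**Figure D5:**
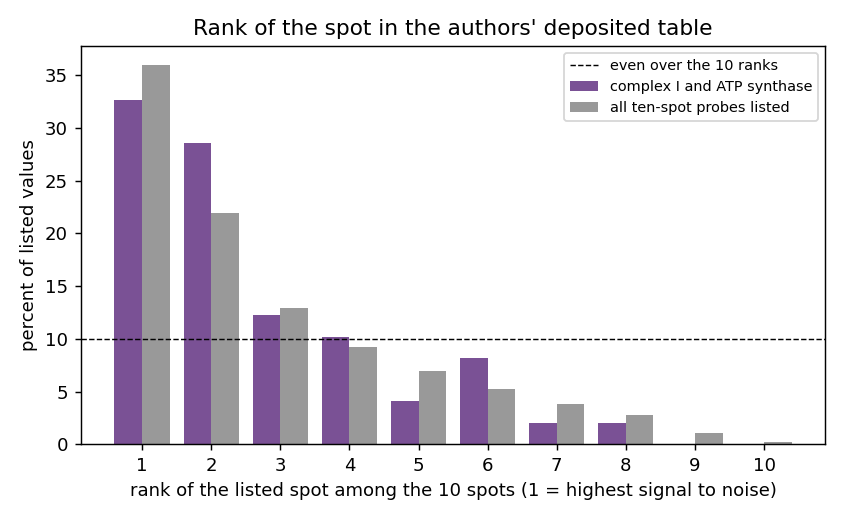
Percent of listed values (vertical axis) by the rank of the listed spot among the 10 spots of its probe, where 1 has the highest signal to noise ratio, for the 49 listed values of the complex I and ATP synthase probes and the 5948 of all ten-spot probes, with a line at an even share. Rank 1 holds 32.7% of the members' values and 36.0% of all, and ranks 9 and 10 hold none of the members' values.

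Other genes of the respiratory chain were taken from lists of its complexes, which also count assembly factors of complex I and of cytochrome c oxidase. Of 42 complex I genes listed, 35 had a probe on the array and 8 a ten-spot probe, which adds the accessory subunits Ndufb8 and Ndufv3 to the 6 members. Of 19 ATP synthase genes 17 had a probe, and 2, both members, had 10 spots. Of 30 genes of complexes II to IV and cytochrome c, 28 had a probe and 5 had 10 spots. None of these genes was called in any comparison (limma, 0 higher and 0 lower), with no unadjusted p under 0.05. Ndufb8 had 0 of 80 spots above background (up to 3.75% allowed by a count of 0), and its differences against control were 0.071 ± 0.151 in Mn and -0.073 ± 0.135 in MPP+. Ndufv3 gave -0.10 ± 0.189 in Mn and -0.090 ± 0.169 in MPP+. Sdhd, a membrane anchor of complex II, averaged 0.52 in Mn and 0.15 in MPP+, a difference of 0.37 ± 0.186 (limma adjusted p = 0.893) that was at percentile 97.6 of all ten-spot probes. Surf1, an assembly factor of cytochrome c oxidase, averaged 0.056 in MPP+ and 0.27 in control, a difference of -0.21 ± 0.145 (adjusted p = 0.995, limma). Uqcrb, a subunit of complex III, averaged 0.27 in MPP+ and 0.064 in control, a difference of 0.21 ± 0.145 (adjusted p = 0.995, limma) at percentile 96.1 of all ten-spot probes. Cox7b, a subunit of that oxidase, averaged 0.31 in Mn and 0.054 in MPP+, a difference of 0.26 ± 0.160 (adjusted p = 0.893, limma). Against control, Mn gave 0.22 ± 0.186 for Sdhd, 0.21 ± 0.160 for Cox7b and 0.074 ± 0.162 for Uqcrb, and MPP+ gave -0.15 ± 0.167 for Sdhd. Between Mn and MPP+ the differences were 0.18 ± 0.162 for Surf1, 0.14 ± 0.151 for Ndufb8 and -0.0098 ± 0.189 for Ndufv3.

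Each array's values were also centred on the array's median over all ten-spot probes and averaged over the members. That average was -0.033 and 0.11 in Mn, 0.019, -0.030 and -0.012 in MPP+, and -0.015, 0.10 and 0.054 in control. The highest were Mn replicate 2 and control replicate 2, so the groups overlapped. Over these 8 arrays the probes most like it, among 1176 ten-spot probes of other genes, were those of Slc31a2 (Pearson 0.901), Rsu1 (0.863) and Slc66a3 (0.857). They are the top of a search over many probes on few arrays and are given as a description.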

How the data were processed

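Per the labels, ScanArray software read Cy3 from each array. Deposited were 1 scanner output per array, with spot and background intensity on a linear scale, per the file headers, and a value table. From the values, that deposited table holds a ratio, the spot median over the background SD of 1 spot per probe and array, with no centring. No source used here names a genome build.

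Per array, log2(channel 1 median / background median) was averaged over the 10 spots of a probe, with no scaling between arrays. limma 3.58.1 (R 4.3.3) fitted 1 mean per group over 8 arrays, with eBayes (5 residual and 23.4 prior degrees of freedom) and Benjamini-Hochberg adjustment at 0.05 over 1390 probes. No dim-probe filter was used, and the number of arrays limits the precision. The fit was tested on simulated data. Python 3.11.15, numpy 2.4.6, pandas 2.3.3, scipy 1.17.1 and matplotlib 3.10.9 did the rest.

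Members, lists and tests were chosen with earlier results of these data known, so a p-value here is no independent evidence. Named were all 8 members, up to 3 genes of smallest p per list and comparison, any called probe, and the 3 probes most like the members. Alternatives were other background corrections, scalings, spot summaries, filters, blocks and arrays.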

Additional observations from a re-analysis of the deposited data

Results flagged for a closer look

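The outputs of replicate 3 of MPP+ and of control hold a second channel, which no comparison above uses and whose content the labels do not give. In it, 2.76% of the spots of ten-spot probes were above background on MPP+ replicate 3 (95% Wilson interval 2.50 to 3.04), against 2.05% (1.83 to 2.30) on control replicate 3, and this difference drew attention to it. Blank spots on the same arrays were above background at 2.25% (1.41 to 3.57) in MPP+ and 3.43% (2.35 to 4.98) in control. The complex I and ATP synthase probes had 0 such spots of 80 on the MPP+ array (up to 3.75% allowed by a count of 0) and 3 of 80 on the control array. Between the channels of 1 array, the probe means had a Pearson correlation of 0.19 in MPP+ and 0.12 in control, across probes. Between the second channels of both arrays it was -0.0071. With 1 array per group there is no replicate check of this difference, and its cause was not tested.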

How the results depend on the processing

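In all, 22 alternatives gave 507 values for the 24 differences of the members. None was called (smallest adjusted p 0.746, limma), 442 kept their direction and 65 of them, in 17 of the 24 differences, changed sign. With probes kept that had 2 or more spots above background on 2 or more arrays, 49 probes remained, Ndufs3 alone among the members, so the other members gave no value. The count of probes called stayed 0 in MPP+ against control. Leaving out each replicate in turn, it was 0 to 2 in Mn against control and 0 to 2 in Mn against MPP+. The 2 came without Mn replicate 2, with 1 lone Mn array assumed to vary like the other groups. They were Lto1 (0.96 ± 0.199 against control, adjusted p = 0.0233, and 1.04 ± 0.199 against MPP+, adjusted p = 0.0145) and a probe with no symbol matched. With all 30367 gene probes fitted, 0 were called in each comparison, and an unadjusted p under 0.05 was seen for 1821 in Mn against control, 1098 in MPP+ against control and 1622 between Mn and MPP+.

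Signs changed as follows, and the cause was not tested. With the shared output counted as Mn replicate 3, Mn against control was 0.055 for Ndufb9 and -0.17 for Atp5pb, and Mn against MPP+ was 0.017 for Ndufa6. Ndufs3 in Mn against MPP+ was -0.029 with arrays centred on their medians and -0.016 with quantile normalization. With normexp (offset 50), MPP+ against control was 0.021 for Ndufb5 and 0.0059 for Atp5f1b, and Mn against MPP+ was -0.024 for Ndufs3. With no background correction, Mn against control was 0.15 for Ndufb9, MPP+ against control was 0.056 for Ndufb5 and 0.040 for Atp5f1b, and Mn against MPP+ was 0.035 for Ndufa6, -0.069 for Ndufs3 and -0.032 for Ndufb3. From spot and background means, Mn against control was -0.049 for Ndufa6 and 0.056 for Ndufb9. MPP+ against control was then -0.11 for Ndufa6, 0.0085 for Ndufb9, -0.0052 for Ndufb3 and 0.011 for Ndufb5, and Mn against MPP+ was 0.063 for Ndufa6, -0.11 for Ndufs3 and -0.025 for Ndufv2. With the median of the 10 spots, Mn against MPP+ was 0.0023 for Ndufa6, -0.031 for Ndufs3, -0.082 for Ndufv2 and 0.042 for Atp5f1b. Without the listed spot it was 0.086 for Ndufa6, -0.037 for Ndufb9, -0.070 for Ndufs3 and -0.061 for Ndufv2. On the 1-channel outputs alone, chosen after seeing the data, Mn against control was 0.023 for Ndufb9 and -0.0082 for Atp5pb, MPP+ against control was 0.057 for Ndufb5, and Mn against MPP+ was -0.010 for Ndufs3.

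Between samples with the same replicate number, the deviations from the group means correlated at -0.033 to 0.063 across probes. Replicate 3 of MPP+ and of control also shared the 2-channel output type. Probe means of all pairs of arrays correlated only from -0.062 to 0.054. The deviations therefore cannot tell whether samples of the same number share anything else. The fit with the replicate number as a block called 0 probes in each comparison, with 75 (Mn against control), 54 (MPP+ against control) and 75 (between Mn and MPP+) at an unadjusted p under 0.05. Under that block, and with the same values under the scanner output type as a block, Mn against control was 0.041 for Ndufb9, and Mn against MPP+ was 0.015 for Ndufa6 and -0.018 for Ndufs3. No other sign changed under these blocks.

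With each array left out in turn, Mn against control ran from -0.30 to 0.072 for Atp5f1b, -0.0082 to 0.25 for Atp5pb, -0.15 to 0.20 for Ndufa6, -0.18 to 0.11 for Ndufb9 and -0.25 to 0.11 for Ndufs3. MPP+ against control ran from -0.23 to 0.14 for Atp5f1b, -0.094 to 0.11 for Ndufa6, -0.014 to 0.13 for Ndufb3, -0.24 to 0.070 for Ndufb5, -0.25 to 0.046 for Ndufb9 and -0.26 to 0.094 for Ndufs3. Mn against MPP+ ran from -0.16 to 0.070 for Atp5f1b, -0.18 to 0.17 for Ndufa6, -0.080 to 0.13 for Ndufs3 and -0.066 to 0.18 for Ndufv2.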
